A study of Mus musculus with 282 samples.

Results

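Granulocyte-monocyte progenitors (GMPs) that had received TNF and showed an oscillatory NfkB response were set against GMPs marked blank for cytokine, with no NfkB response. Members were found in the authors' deposited cell tables: cells with the stimulus TNF and the class oscillatory, and cells with the cytokine entry "blank" and the class non-responsive. The entry is read here as no TNF added. They came to 103 of the 238 cells that the tables list with a class: 56 oscillatory TNF cells and 47 non-responsive blank cells. The 1-plate experiment gave 20 and 13 of them, and the 2-plate experiment 36 and 34. All cells came from bone marrow of GFP-p65/H2BmCherry mice of both sexes, 12 to 19 weeks old. The mice were homozygous for GFP-p65 and heterozygous for H2BmCherry, so the blank cells carried both reporters too. All cells were kept for 8 h in culture under a confocal microscope, picked singly with a micromanipulator and profiled by Smart-Seq2. This method copies and amplifies the mRNA of a single cell. The sources used here do not give the dose of TNF, the number of mice or the way the classes were assigned.

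GMPs are bone marrow cells committed to making neutrophils and monocytes. In resting cells NfkB dimers, most often with the subunit p65, are held in the cytoplasm by IkB proteins. TNF binding to its receptors leads to the breakdown of IkB, and p65 enters the nucleus and switches on target genes. IkB genes are among those targets, and newly made IkB carries p65 back out of the nucleus. Under lasting stimulation this loop can make nuclear p65 rise and fall repeatedly, which is what an oscillatory class refers to, and the comparison addresses which transcripts differ between such cells and cells left at rest. Stimulus and response class changed together here, and so did a position number that the cell tables hold. What it is a position of is not stated. TNF and blank cells shared 0 of these numbers, with 13 and 6 in the 1-plate experiment and 3 and 1 in the other. Stimulus, class and position number therefore cannot be told apart in this comparison. The files give genes by Ensembl identifier and do not pair these with names. The label GMP could thus not be checked against marker genes, and 2 identifiers in each direction are given below.

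Both groups were sequenced to similar depth within each experiment. In the 1-plate experiment, oscillatory cells had a median of 950618 reads (525211 to 1585444) and blank cells 939922 (350942 to 1349239). In the 2-plate experiment the medians were 1924509 reads (325684 to 2873386) and 1806716 (297165 to 2971468). Median detected genes were 10110 against 9684 in the first and 9802 against 9974 in the second, so the group with more detected genes was not the same in both. Fewer than 8000 genes were found in 5 oscillatory cells and 4 blank cells, and the 5 were all on Plate2 of the 2-plate experiment.

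Most members of both groups were in G2M phase by the authors' deposited phase calls. In the 1-plate experiment, 14 of 20 oscillatory cells were (70%, exact 95% interval 45.7% to 88.1%), against 7 of 13 blank cells (53.8%, 25.1% to 80.8%). In the 2-plate experiment the counts were 22 of 36 (61.1%, 43.5% to 76.9%) and 20 of 34 (58.8%, 40.7% to 75.4%). S-phase cells numbered 2 of 20 oscillatory against 3 of 13 blank cells in the first and 2 of 36 against 5 of 34 in the second, where Plate2 went the other way with 2 of 14 against 1 of 16. The intervals of the groups overlapped in every phase. They cover counting error only, and cells of 1 experiment are not replicates.

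**Figure D1:**
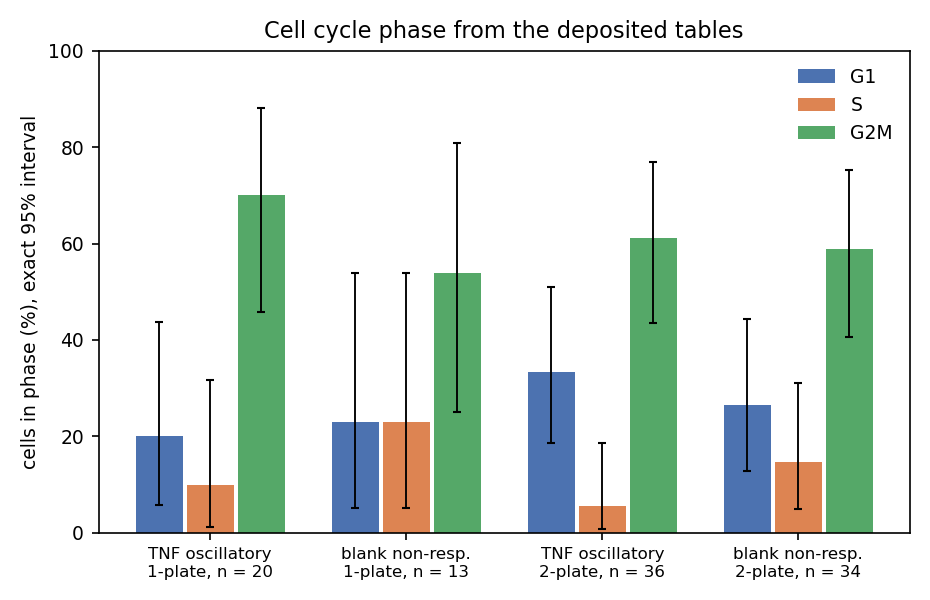
Share of cells in each cell cycle phase (y axis, percent, with exact 95% binomial intervals) for the 2 groups in each experiment (x axis). G2M was the most frequent phase in all 4 sets of cells, from 53.8% to 70%, and the intervals of the groups overlapped in every phase.

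Genes were called in both directions. Of 8361 genes tested on reads summed per experiment and class, 492 rose (5.88% of those tested) and 240 fell (2.87%), 8.75% in either direction (edgeR's quasi-likelihood test, Benjamini-Hochberg adjusted p under 0.05, n = 2 experiments). The genes that rose had a median log2 fold change of 1.42, and those that fell -1.07, against -0.02 over all genes tested. Changes of at least 2-fold were found in 360 of the genes that rose and 132 of those that fell, and changes of at least 4-fold in 136 and 28. The filter on low counts read 10 sums, 7 of TNF cells and 3 of blank cells, and kept genes that reached 10 CPM in 50% of them. A gene found in TNF cells alone could therefore be tested and a gene found in blank cells alone could not, which favours the higher side. With both the filter and the fit limited to the 4 sums compared, 474 genes rose and 156 fell. That refit also changed the scaling and the residual degrees of freedom (1 against 2), so its counts do not isolate the filter. At an unadjusted p under 0.05 in the fit as reported, 1125 were higher and 950 lower. The median standard error was 0.22 and 0.20 on the log2 scale. The experiment term takes out a shift common to all classes of an experiment. The p-values rest on how far class differences varied between the experiments, for classes summed in both, and on a spread shared across genes. Nothing in the labels states that each experiment had its own mice, so that variation may be technical.

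Strongly expressed genes passed the test more often. Levels are given as CPM, the reads of a gene scaled to a common total of gene reads per library. Of the 2090 genes with the highest mean level (109 CPM or more), 9.95% rose and 4.26% fell. Of the 2091 genes with the lowest (8.04 to 29.3 CPM), 3.63% rose and 2.25% fell. Together the 492 genes held 13.7% of the reads of oscillatory cells against 5.39% of those of blank cells in the 1-plate experiment, and 13.1% against 5.92% in the 2-plate experiment. The 240 genes held 2.65% against 6.14% and 2.49% against 4.64%. These shares describe genes chosen for the difference, in the cells they were chosen from.

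Direction was shared between experiments. All 732 called genes changed the same way in both, against 65.7% of all genes tested; the test that chose them used both experiments, so this is a description. On each of the 3 plates taken alone, 469 of the 492 genes were higher and 222 of the 240 were lower in oscillatory cells, while 46.4% of all genes kept their fitted direction on every plate. The median log2 fold change of the 492 genes, on a scale of CPM plus 1, was 1.47 in the 1-plate experiment, 1.22 on Plate1 and 1.06 on Plate2. For the 240 genes it was -1.14, -0.82 and -1.20. Across the 8361 genes, which are not independent, fold changes of the experiments had a Pearson correlation of 0.65 and a Spearman correlation of 0.47.

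**Figure D2:**
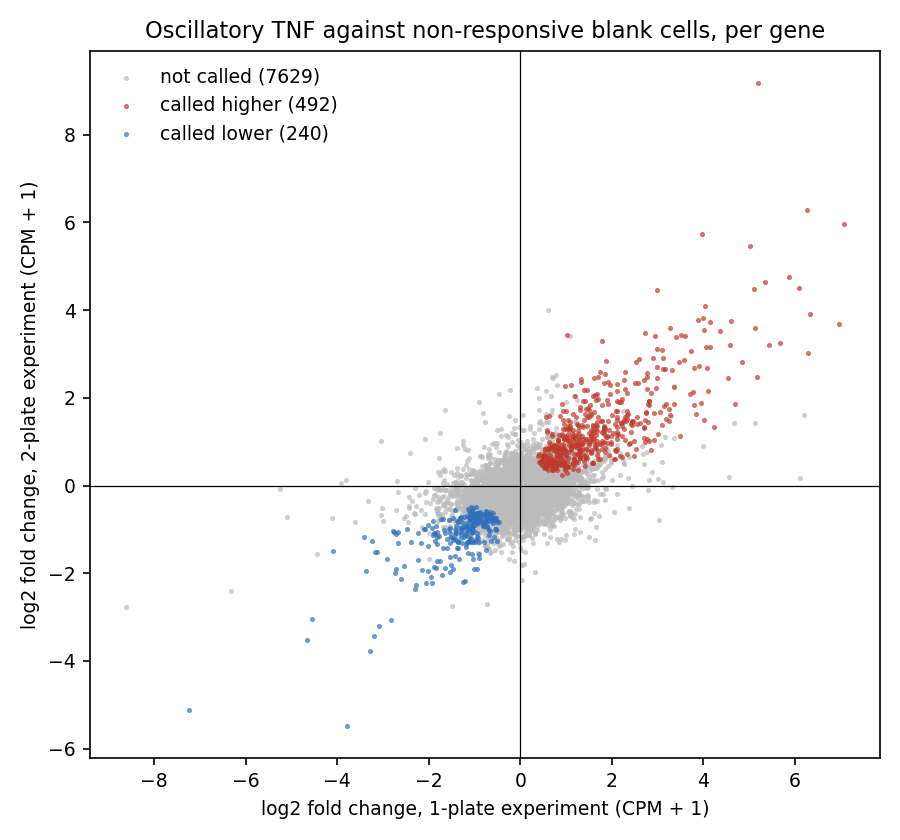
Each point is 1 of 8361 genes, with its log2 fold change of oscillatory TNF over non-responsive blank cells: x axis, the 1-plate experiment; y axis, the 2-plate experiment; both from CPM plus 1. The 492 genes called higher lie at the upper right and the 240 called lower at the lower left, and all of them have the same sign in both experiments.

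A gene's summed reads can rise because more cells have any, or because cells that have them hold more. Among cells with a read of the gene, the level was higher in oscillatory cells for 467 of the 492 genes in the 1-plate experiment and for 485 in the other, against 3922 and 3116 of all 8361. The median ratio of those levels was 1.22 and 1.07 on the log2 scale, and for the 240 genes that fell -1.0 and -0.97. The genes were chosen for a difference in the summed reads of these cells, so these values largely follow from the choice. Shares of cells with a read cannot pass 100%, so their differences cannot be set against these ratios. With cells thinned to 458260 reads, which left 20 and 34 oscillatory and 12 and 32 blank cells, a gene that rose was found in a median of 100% against 83.3% and 94.1% against 90.6% of cells. Without thinning the medians were 100% against 84.6% and 97.2% against 91.2%. In thinned cells of the 1-plate experiment the share was higher in oscillatory cells for 375 of the 492 genes and lower for 7. In the 2-plate experiment it was higher for 311 and lower for 78. Over all 8361 genes the counts were 4405 and 952 in the first and 1702 and 5125 in the second. These counts too are of genes chosen on these cells. A gene that fell was found in 95% against 91.7% and 88.2% against 96.9% of thinned cells, and over all genes the medians were 100% against 91.7% and 94.1% against 96.9%. At least 75% of thinned cells of both groups in both experiments had a read for 278 of the 492 genes (56.5%) and 153 of the 240 (63.8%), against 76.4% of all genes. 

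Single cells weighed unequally in the 2 directions. For 106 of the 492 genes that rose, 1 cell held over 25% of the reads of the oscillatory cells in at least 1 experiment, and for 19 it held over 50%. For 129 of the 240 genes that fell, 1 cell held over 25% of the reads of the blank cells, and for 29 over 50%. Over all 8361 genes, 1 cell held over 25% of the reads of the group with the higher level in at least 1 experiment for 2220. The smallest group was that of the 13 blank cells; its part in these shares was not tested. With the highest cell of each gene left out of every sum, 541 genes rose and 251 fell, among them 442 of the 492 and 197 of the 240.

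The genes described next had the largest changes in each direction among called genes in which no cell held over 25% of the reads of the higher group, a limit that 386 of the 492 and 111 of the 240 met. ENSMUSG00000000957 had the largest rise, a log2 fold change of 7.44 ± 0.24 (SE, n = 2 experiments; adjusted p = 2.2e-05 by edgeR's quasi-likelihood test with Benjamini-Hochberg adjustment). In the 1-plate experiment its level in single oscillatory cells ran from 0 to 655 CPM with a median of 67.9, and in blank cells from 0 to 19.2 with a median of 0. In the 2-plate experiment oscillatory cells ran from 0 to 548 CPM with a median of 59.7, and blank cells from 0 to 21.4 with a median of 0. Oscillatory cells with a read numbered 12 of 20 and 29 of 36, and blank cells with one 2 of 13 and 5 of 34. The groups overlapped at 0 and at low levels, where some oscillatory cells with a read lay below the highest blank cell. Summed levels were 153 against 0.98 CPM and 148 against 0.90 CPM. A single cell held 83.3% and 83.9% of the blank reads, blank levels were 0.13 CPM on Plate1 and 1.63 CPM on Plate2, and with the highest cell of each sum left out the log2 fold change was 9.98, so its size is poorly fixed. It passed in all 15 of the other tested settings, with log2 fold changes of 6.69 to 9.98. In the fit as reported, its log2 fold change over blank cells was 5.78 in transient and 7.18 in non-responsive TNF cells. The rise was thus not particular to the oscillatory class.

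ENSMUSG00000026875 rose with a log2 fold change of 5.89 ± 0.21 (SE, n = 2 experiments; adjusted p = 2.7e-05, same edgeR test). Single oscillatory cells ran from 0 to 394 CPM (median 17) in the 1-plate experiment, and from 0 to 1220 CPM (median 90.1) in the other. Blank cells ran from 0 to 8.51 and from 0 to 30.6 CPM, with medians of 0. Oscillatory cells with a read numbered 14 of 20 and 35 of 36, and blank cells 3 of 13 and 7 of 34. The plates differed in level more than in direction, with 100.4 against 0.20 CPM on Plate1 and 417 against 7.19 CPM on Plate2. It did not pass without the experiment as a term (edgeR adjusted p = 0.085), and passed in the other 14 settings. Over these 15 settings its log2 fold change ran from 5.78 to 7.10. Summed blank levels were only 1.48 CPM in the 1-plate and 3.81 CPM in the 2-plate experiment, so the size of the rise is poorly fixed. Transient and non-responsive TNF cells had log2 fold changes of 4.54 and 5.33 over blank cells for this gene, so they shared the rise. The non-responsive TNF cells were summed in the 2-plate experiment alone.

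ENSMUSG00000047604 fell with a log2 fold change of -2.42 ± 0.46 (SE, n = 2 experiments; adjusted p = 0.019, same edgeR test). In the 1-plate experiment all 13 blank cells had reads, at 14.9 to 169 CPM with a median of 34.2, while oscillatory cells ran from 0 to 20.9 CPM with a median of 0.60. Summed levels were 5.69 against 59.3 CPM there and 20.2 against 59.2 CPM in the other, so that the log2 fold change was -3.17 in the first alone and -1.51 in the second alone. Only the top of the oscillatory cells overlapped the blank cells of the 1-plate experiment. In the 2-plate experiment the ranges overlapped widely, at 0 to 206 CPM in blank cells (median 40.8) and 0 to 95.3 CPM in oscillatory cells (median 8.12). Oscillatory cells with a read numbered 10 of 20 and 26 of 36, and 31 of 34 blank cells of the 2-plate experiment had one. It missed the threshold with edgeR's default filter (adjusted p = 0.066), without the experiment as a term (0.35), without Plate1 (0.16), in G2M cells alone (0.085) and with spike-in factors (0.98). Its log2 fold change over blank cells was -1.35 in transient and -2.43 in non-responsive TNF cells, the latter summed in the 2-plate experiment alone.

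ENSMUSG00000027071 fell with a log2 fold change of -3.36 ± 0.63 (SE, n = 2 experiments; adjusted p = 0.018, same edgeR test). It was rare in both groups, since 6 of 20 and 7 of 36 oscillatory cells had a read, as did 6 of 13 and 15 of 34 blank cells, and all 4 cell medians were 0. The blank cells that had it reached 76.2 and 115 CPM, and the oscillatory cells 12.0 and 18.7 CPM. Summed levels were 1.51 against 25.1 CPM and 1.46 against 8.56 CPM. It missed the threshold with the default filter (edgeR adjusted p = 0.065), without the experiment as a term (0.10) and with spike-in factors (0.88), and 5 of the 15 other settings removed it as too low. Its fitted log2 fold change over blank cells was -0.03 in transient and -0.25 in non-responsive TNF cells. Transient cells were lower than blank cells in the 1-plate experiment, at 10.7 against 25.1 CPM. In the 2-plate experiment they were higher, at 19.5 against 8.56 CPM. Non-responsive TNF cells, summed in the 2-plate experiment alone, were at 11.9 CPM, above the blank sum although the fitted value is negative.

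**Figure D3:**
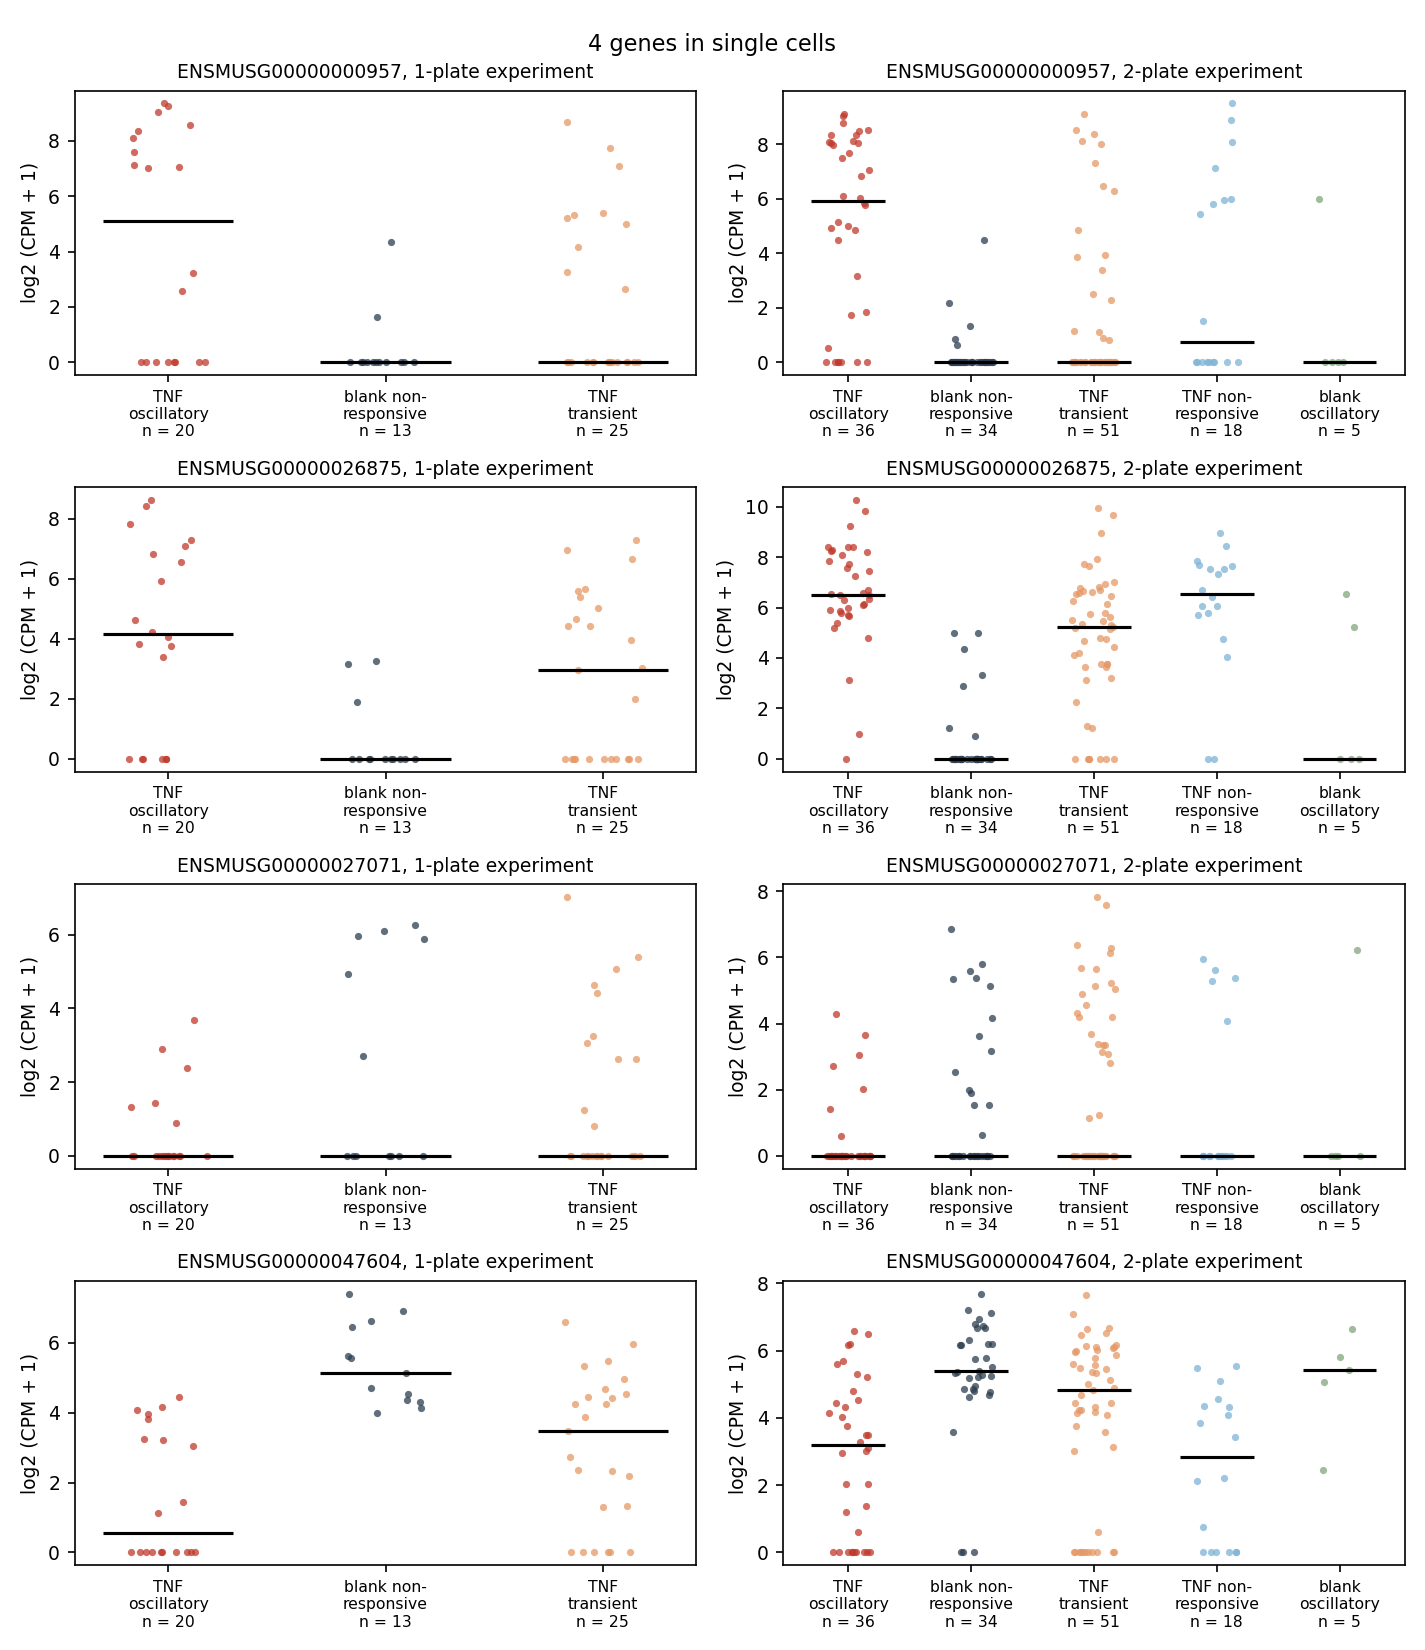
Level of 4 genes in single cells, as log2 of CPM plus 1 (y axis), by class (x axis) in the 1-plate (left) and 2-plate experiment (right); points are cells and lines are medians. For ENSMUSG00000000957 and ENSMUSG00000026875 the median blank cell is at 0 in both experiments, and for ENSMUSG00000047604 the median blank cell lies above the median oscillatory cell in both.

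The difference could be read cell by cell in cells outside the experiment whose fold changes chose the genes. Genes at least 4-fold higher or lower in summed reads of 1 experiment (CPM plus 1, no test) were taken to the other. Those cells still had a part in the choice, because the filter on low counts had used both experiments. The 1-plate experiment held too few of the 10 sums to pass a gene alone. A gene chosen as higher there and low in blank cells also had to reach 10 CPM in TNF sums of the 2-plate experiment. Agreement of such genes in the 2-plate experiment is thus partly built in, by an amount that was not tested. Of 193 genes chosen as higher in the 1-plate experiment, 186 were higher in the 2-plate experiment (96.4%, against 36.4% of all genes), with a median log2 fold change of 1.61. Of 76 chosen as lower, 69 were lower (90.8%, against 63.6% of all genes), with a median of -1.0. The reverse choice gave 102 of 104 (98.1%, against 48.8% of all genes) and 22 of 23 (95.7%, against 51.1%), with medians of 2.97 and -2.61.

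Oscillatory cells varied widely among themselves in these genes. In the 2-plate experiment the 193 genes took a median of 3.38% of an oscillatory cell's reads, from 0.62% to 7.60%, against 0.62% in blank cells, from 0.28% to 2.72%. The medians differed 5.41-fold, and 35 of 36 oscillatory cells lay above the median blank cell. The groups still overlapped, since 22 of the 36 lay above the highest blank cell and 14 did not. In the 1-plate experiment the 104 genes took a median of 1.74% (0.15% to 5.05%) in oscillatory and 0.13% (0.055% to 1.20%) in blank cells. All 20 oscillatory cells were above the median blank cell there, and 14 were above the highest. The genes chosen as lower took a median of 0.32% (0.090% to 1.21%) against 0.66% (0.11% to 2.74%) in the 2-plate experiment, with 33 of 36 oscillatory cells below the median blank cell. Overlap was wide, since 3 of the 36 lay below the lowest blank cell. The 23 genes took, in the 1-plate experiment, 0.012% (0.00026% to 0.18%) against 0.076% (0.0021% to 2.75%), with 17 of 20 below the median blank cell and 3 below the lowest.

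**Figure D4:**
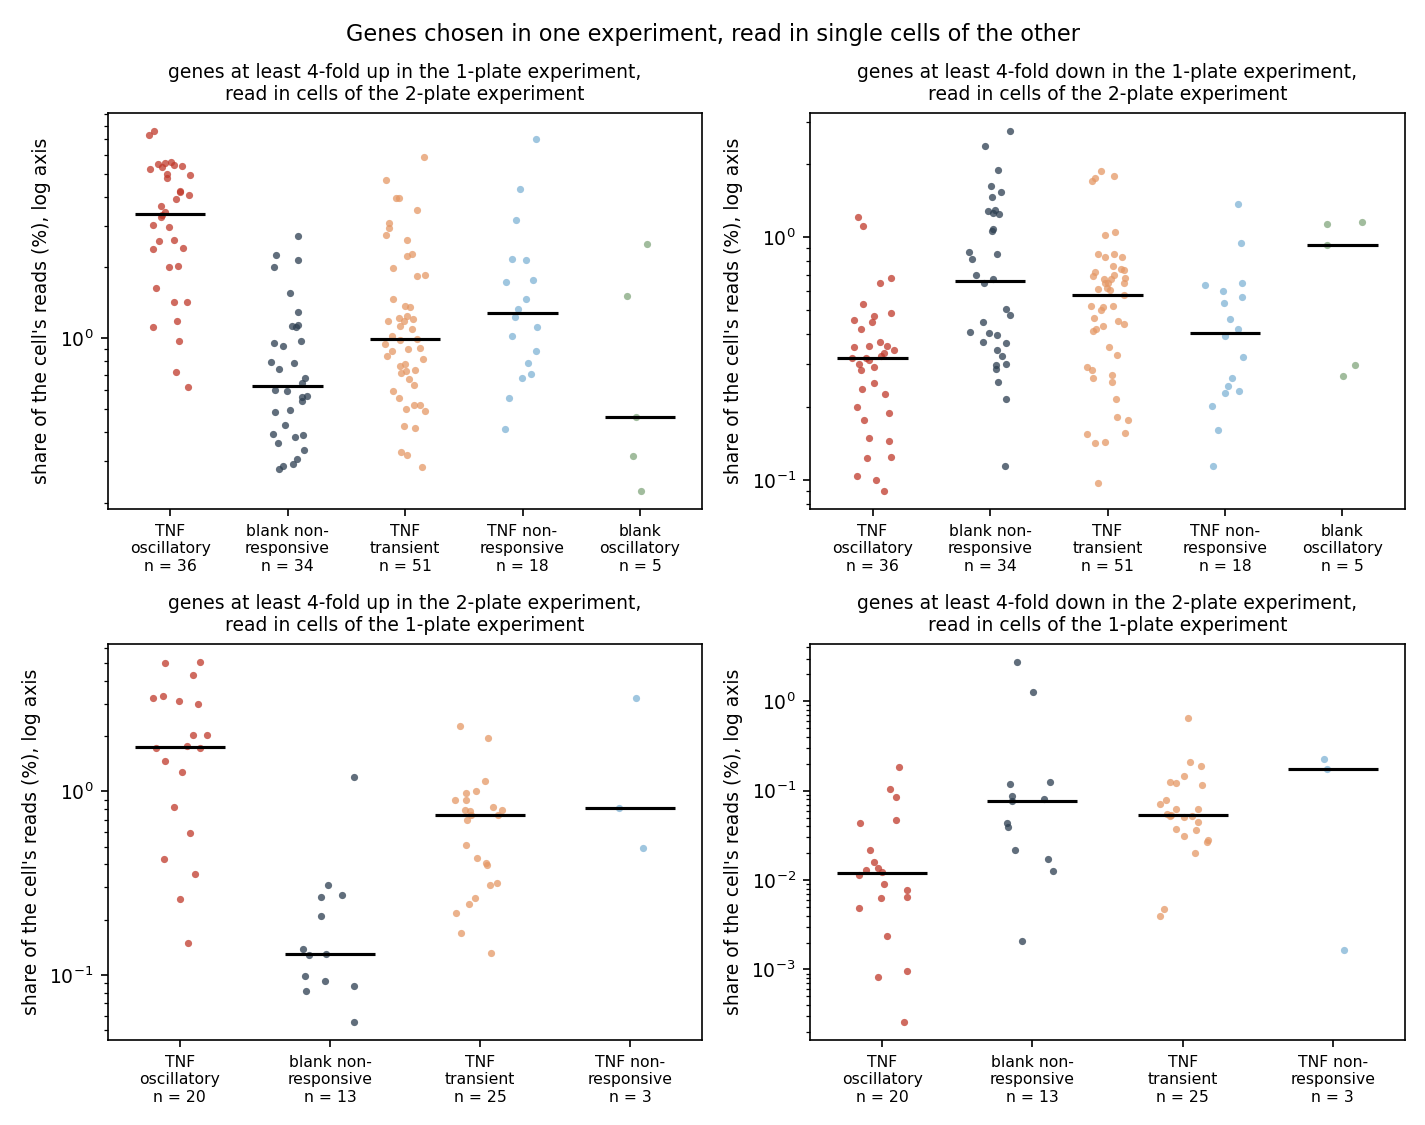
Share of each cell's reads (y axis, percent, log axis) in genes at least 4-fold up (left) or down (right) in the other experiment, by class (x axis); points are cells and lines are medians. In the upper left panel oscillatory cells have a median of 3.38% and blank non-responsive cells 0.62%, and the 2 clouds overlap.

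Medians of the 193 genes were higher in oscillatory cells in G1, in G2M and on both plates, by different amounts; S phase held too few oscillatory cells. In G1 cells of the 2-plate experiment the 193 genes had medians of 4.88% in 12 oscillatory and 0.93% in 9 blank cells, and in G2M cells 3.30% in 22 and 0.66% in 20. By plate, medians were 3.78% against 0.58% on Plate1 (6.54-fold) and 2.21% against 0.66% on Plate2 (3.35-fold). With cells of at least 8000 detected genes alone they were 3.91% against 0.62%. These 31 oscillatory cells started at 0.97%, and all of them lay above the median blank cell. For the 76 genes chosen as lower, blank medians were 1.32-fold higher in G1 cells, 2.02-fold in G2M cells, 2.32-fold on Plate1 and 1.56-fold on Plate2, against 2.07-fold in all cells.

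Other classes differed in where they lay, by experiment and direction. In the 2-plate experiment the 193 genes took a median of 0.99% (0.28% to 5.91%) of the reads of 51 transient TNF cells and 1.28% (0.41% to 7.0%) of those of 18 TNF cells called non-responsive. They took 0.46% (0.22% to 2.52%) in 5 oscillatory blank cells. Their highest cell was below the highest non-responsive blank cell, while 8 transient and 3 non-responsive TNF cells were above it. Transient TNF cells of the 1-plate experiment had a median of 0.74% of reads in the 104 genes, 5.72-fold the blank median, and all 25 were above it. The 76 genes chosen as lower took 0.58% in transient, 0.40% in non-responsive TNF and 0.93% in oscillatory blank cells, the last above the 0.66% of non-responsive blank cells. In the fit, which uses the same blank sums for every class, the 492 genes had median log2 fold changes of 1.42 in oscillatory TNF, 0.55 in transient TNF, 0.96 in non-responsive TNF and 0.40 in oscillatory blank cells. The 240 genes had medians of -1.07, -0.38, -0.55 and -0.28. The genes were chosen on the oscillatory class, so its lead is a matter of choice and not a result.

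Cell cycle genes, the one functional group that could be matched by identifier, were called at no higher rate than all genes. They were the 667 marker genes that the R package scran provides for assigning phases in mouse cells. Of these, 568 were tested; 11 rose (1.94%, against 5.88% of all genes) and 16 fell (2.82%, against 2.87%), and their median log2 fold change was -0.08. Within G2M cells alone, the phase with enough cells in both groups and experiments, 251 genes rose and 36 fell, among them 221 of the 492 and 33 of the 240. The median log2 fold change of the 492 genes was 1.44 in those cells, close to its value in all cells. Those cells are most of the cells in which the genes were called, so a close median is largely built in. The part of phase in the calls was not tested.

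Counts of calls changed with the plates and the scaling. Without Plate1 of the 2-plate experiment 203 genes rose and 42 fell, 195 and 35 of the called genes among them, and without Plate2 395 and 189. With factors from the spike-in RNA in place of factors from the genes, 30 genes rose and 3 fell. Spike-in shares moved in opposite directions in the experiments; their part in the lower counts was not tested. Spike-in reads were 0.10% of the reads of oscillatory against 0.33% of those of blank cells in the 1-plate experiment, and 1.61% against 1.34% in the 2-plate experiment. Medians over cells were closer in the first, at 0.094% against 0.157%, where blank cells reached 1.63%, and were 1.17% against 1.11% in the second. That scaling acts on whole sums and shifted the median of all genes to 0.53 on the log2 scale. The 492 genes had a median of 1.42 and the 240 genes -1.02 relative to it, which a shift of whole sums largely fixes, and 2 of the 240 changed sign.

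**Figure D5:**
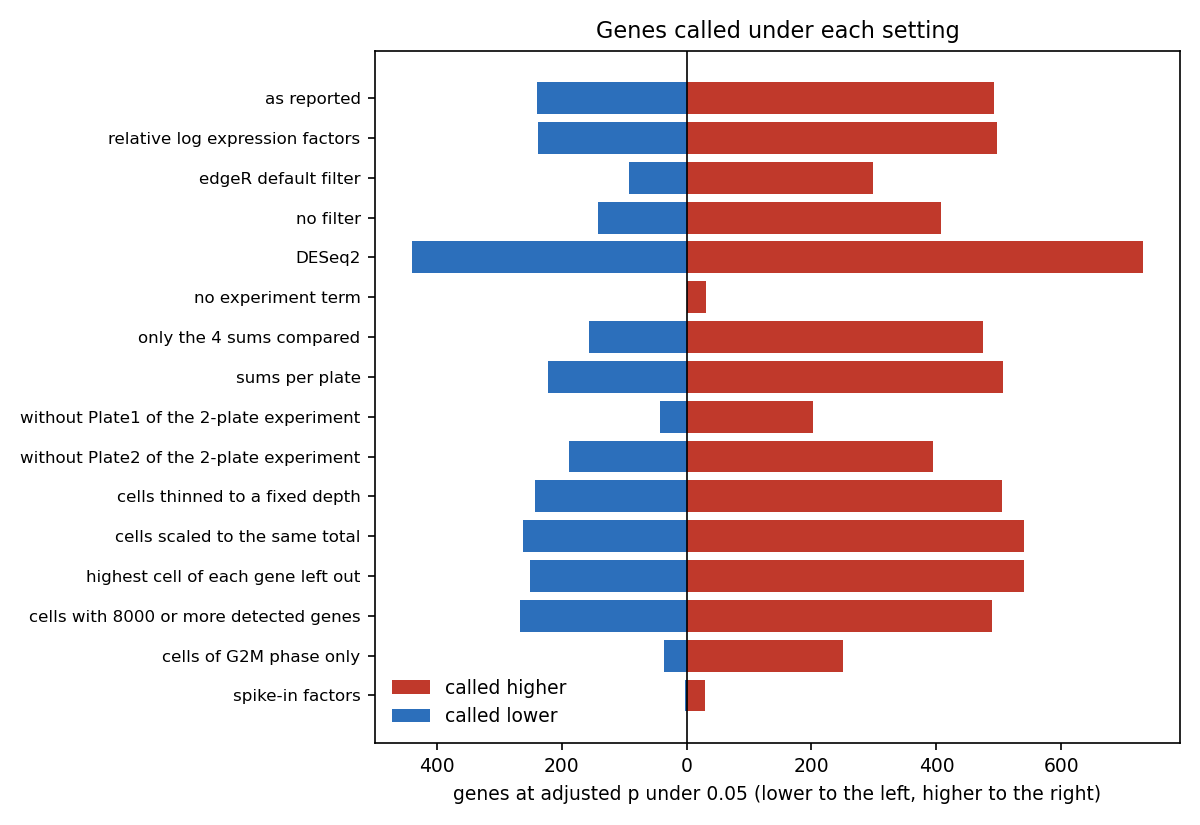
Number of genes at an adjusted p under 0.05 (x axis), lower to the left and higher to the right, under each setting (y axis). Counts as reported are 492 and 240; they are smallest without the experiment as a term (31 and 0) and with spike-in factors (30 and 3).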

How the data were processed

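Per the labels, libraries of single GMPs were made with Smart-Seq2 and Nextera reagents. The authors deposited raw read counts by Ensembl gene. SAMtools, Subread 1.5.0 and featureCounts are listed in the submitters' processing notes. The sources used here do not give the build, the annotation or the strand setting, and reads of overlapping genes and close copies could not be told apart. The authors' deposited cell tables give stimulus, class, phase and phase scores, each a fraction from 0 to 1. Reads carry no molecular identifiers.

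Columns were tied to samples by well and plate; 357 columns matching no sample and 44 samples without a class were not used. The 92 spike-in features stayed out of library sizes. None of the 55450 gene identifiers was found in the reference gene table (0 matched), so gene lists set by symbol, cell type markers and promoter sequences were not used.

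Cells are not replicates. Counts were summed per experiment and class of at least 5 cells (10 sums), and oscillatory TNF was set against non-responsive blank with the experiment as a term, in edgeR 4.0.16 (R 4.3.3): TMM factors, a filter keeping genes that reach 10 CPM in 50% of the sums, quasi-likelihood test, Benjamini-Hochberg adjustment, two-sided, 2 residual degrees of freedom. Standard errors are the absolute log2 fold change over the square root of F. CPM in single cells divides by the cell's gene reads. Alternatives included DESeq2 1.42.0. Cell cycle markers came from scran 1.30.0. Named genes were the largest changes in each direction among called genes of 1 direction in both experiments with no cell over 25% of the higher group's reads, limited to 2 each way because names were not paired; predicted and sex-linked genes could not be left out. Cells, settings, lists and the stricter filter were chosen with earlier results of these data known; the marker list and the reading across experiments were added after the files were seen.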

Additional observations from a re-analysis of the deposited data

Results flagged for a closer look

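In the 5 oscillatory blank cells of the 2-plate experiment, 1 cell stood far from the others for ENSMUSG00000000957, at 62.1 CPM, and 1 for ENSMUSG00000027071, at 73.9 CPM; the other 4 cells were at 0 for each gene. Such gaps were called by Dixon's 95% criterion, and 6 groups were looked at. When 4 of 5 cells are at 0, any read in the other cell passes it. The usual chance rate of about 1 in 20 groups does not apply there, and both flags only restate detection in 1 of 5 cells.

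The spike-in share was lower in oscillatory than in blank cells by a log2 ratio of -1.67 in the 1-plate experiment and higher by 0.26 in the 2-plate experiment. These are ratios of summed reads; medians over cells were 0.094% against 0.157% in the first, where 1 blank cell reached 1.63%, and 1.17% against 1.11% in the second. The difference between the experiments was not tested.

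Marker genes of G2M phase had a median log2 fold change of 0.050 in the 1-plate experiment and -0.10 in the other, so the sign differed. The median of all genes was -0.02 and -0.13, and the difference between the experiments was not tested.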

How the results depend on the processing

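With edgeR's default filter 298 genes rose and 92 fell, and with no filter 407 and 142; both test more genes (16586 and 25825). DESeq2 called 731 and 440. Without the experiment as a term edgeR called 31 and 0, with 368 genes lower at an unadjusted p under 0.05. With only the 4 sums compared, 474 rose and 156 fell. Without Plate1 the counts were 203 and 42, in G2M cells 251 and 36 (fewer cells in each), and with spike-in factors 30 and 3. The causes of these differences in counts were not tested. Relative log expression factors, sums per plate, thinned or rescaled cells, no highest cell, cells of 8000 genes or more and no Plate2 gave 395 to 541 that rose and 189 to 267 that fell, each within 1.5 times of the reported count. The median of the genes that fell was -0.97 in G2M cells and -0.49 with spike-in factors, where that of the genes that rose was 1.95. Leaving out 1 experiment leaves no residual degrees of freedom and gives no test: medians were 1.13 to 1.47 and -1.14 to -1.01. Settings tested 467 to 492 of the genes that rose and 218 to 240 of those that fell; of those tested, 1 of 228 changed sign without Plate2 and 2 of 240 with spike-in factors, and no other did. No paired analysis was possible because replicate numbers only name cells in accession order, so nothing pairs single cells; the groups are matched by experiment, through the term in the reported fit.

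Fold changes of genes near 10 CPM rest on few cells, and 13 blank cells limit the 1-plate experiment.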
